A study of Mus musculus with 6 samples.

Results

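Protein ubiquitination ends with a ligase that picks the substrate, and 4 gene families supply many of the substrate-picking parts of mouse ligases. Their transcripts were described here in C2C12 cells, mouse myoblasts of an established line that can be made to form myotubes. Members were all genes whose symbol starts with Trim, Fbxo, Fbxl, Fbxw, Asb or Klhl followed by a digit: 199 of the 22272 gene symbols in the deposited table. Of these, 68 were Trim genes, 77 were F-box genes (36 Fbxo, 18 Fbxl and 23 Fbxw), 18 were Asb genes and 36 were Klhl genes. The rule used names only, and no measured value. All 6 samples were undifferentiated C2C12 myoblasts at day 0, 3 with the genotype WT that carried GFP as the control and 3 with the genotype ChREBP-beta overexpression. ChREBP-beta is the short, highly active form of the glucose-responsive transcription factor encoded by Mlxipl. The sources used here give neither the way it was introduced nor whether a group came from 1 clone. The labels do not say whether replicates were separate cultures, so the p-values below reflect only how far these samples scatter, possibly for technical reasons.

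Trim proteins are single-chain ligases, most with a RING finger that recruits the ubiquitin-conjugating enzyme, followed by B-box and coiled-coil regions. F-box proteins join Skp1 and cullin 1, Asb proteins join elongins B and C and cullin 5 through their SOCS box, and most Klhl proteins join cullin 3 through a BTB domain and hold the substrate with Kelch repeats. In muscle, members of all 4 families are known from the turnover of contractile proteins, from atrophy and from inherited muscle disease.

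The promoters printed are those of the 5 tested members called lower by at least 2-fold. These lay in 2 sets of genes: neighbouring Trim genes of chromosome 7, and genes made in muscle. Trim30a, Trim30d, Trim54 and Klhl41 passed the filter on low counts only through their GFP libraries. A difference was thus a condition of their being tested, and the choice of promoters rests on it. The sequences are the bases before the RefSeq start site on GRCm38.p6, 5′ to 3′ along the gene. Capitals in Trim12c, Trim30a and Trim30d mark TTTC, 2 further bases and TTTC, which is a GAAA pair with 2 bases between on the other strand, the core of the element that interferon regulatory factors recognise. Capitals in Trim12c, Trim54 and Klhl41 mark CAGCTG, an E-box that myogenic factors such as MyoD recognise. A match of letters is a description and not a measured binding site. The Trim12c sequence is chr7:104353363-104353599 on the minus strand, Trim30a is chr7:104465194-104465443 on the minus strand and Trim30d is chr7:104507850-104508099 on the minus strand. Trim54 is chr5:31116362-31116611 on the plus strand and Klhl41 is chr2:69669870-69670119 on the plus strand.
Trim12c: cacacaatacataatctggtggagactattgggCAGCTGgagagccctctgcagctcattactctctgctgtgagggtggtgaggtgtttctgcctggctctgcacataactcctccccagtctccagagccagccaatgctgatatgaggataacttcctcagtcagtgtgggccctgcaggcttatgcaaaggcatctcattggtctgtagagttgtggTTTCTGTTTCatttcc
Trim30a: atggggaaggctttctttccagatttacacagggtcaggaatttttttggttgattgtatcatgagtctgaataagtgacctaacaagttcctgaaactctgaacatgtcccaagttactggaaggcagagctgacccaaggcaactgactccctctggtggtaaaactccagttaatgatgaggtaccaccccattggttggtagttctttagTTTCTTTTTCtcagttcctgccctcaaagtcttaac
Trim30d: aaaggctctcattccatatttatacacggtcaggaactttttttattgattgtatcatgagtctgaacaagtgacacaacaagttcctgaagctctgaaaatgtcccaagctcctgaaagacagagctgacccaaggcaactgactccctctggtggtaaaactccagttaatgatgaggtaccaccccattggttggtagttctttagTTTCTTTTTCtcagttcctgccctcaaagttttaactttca
Trim54: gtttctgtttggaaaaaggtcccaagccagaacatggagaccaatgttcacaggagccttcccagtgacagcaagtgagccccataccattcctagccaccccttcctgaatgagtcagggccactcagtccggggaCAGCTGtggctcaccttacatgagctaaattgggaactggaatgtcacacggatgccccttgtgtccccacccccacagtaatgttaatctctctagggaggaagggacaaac
Klhl41: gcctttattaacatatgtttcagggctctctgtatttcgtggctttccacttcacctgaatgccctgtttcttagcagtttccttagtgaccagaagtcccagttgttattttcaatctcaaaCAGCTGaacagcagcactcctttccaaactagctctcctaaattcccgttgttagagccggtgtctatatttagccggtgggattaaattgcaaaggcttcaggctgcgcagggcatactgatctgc

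The Trim30a and Trim30d promoters were near-copies, with 227 identical bases in 255 alignment columns (89.0%). Trim12c shared 50.9% of alignment columns with Trim30a and 52.5% with Trim30d, where the other pairs of the 5 shared 43.0% to 47.8%. The GAAA pair ended close to the start site in all 3 Trim genes, its first base lying 29 bases before the start in Trim12c, 36 in Trim30a and 41 in Trim30d. In Trim12c the 13 bases nearest the start lie in an annotated exon and are not shown.

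The libraries held 17600238 to 19163834 counts, and the unit below, CPM, is counts scaled to a common library size, where 1 CPM equals about 18.3 counts. Mitochondrial genes took 9.30% to 9.99% of counts with GFP and 8.16% to 8.62% with ChREBP-beta. Mlxipl rose from 0.599 ± 0.111 CPM in the control libraries to 219 ± 3.85 CPM (SD, n = 3; edgeR adjusted p = 1.18e-28), as the labels say. Markers of myoblasts were present, but all 8 were lower with ChREBP-beta, Myod1 among them at 30.8 ± 1.21 CPM against 1.23 ± 0.340 CPM (SD, n = 3). Their summed level was 435 to 485 CPM with GFP against 151 to 160 CPM with ChREBP-beta. The summed level of 6 fibroblast markers was 827 to 861 CPM and 875 to 900 CPM, with 4 higher and 2 lower. Adipocyte markers summed to at most 1.36 CPM in any library, with Lep at 0 in all. GFP replicate 1 stood apart in RNA of other tissues: its lung markers summed to 0.576 CPM, against 68.4 to 135 CPM in the other 5 libraries. Hepatocyte markers were low in GFP replicates 1 and 2, at 0.785 and 0.719 CPM, against 14.9 to 24.5 CPM in the other 4 libraries. Blood markers summed to 3.35 to 11.0 CPM with GFP and 5.49 to 9.79 CPM with ChREBP-beta, macrophage markers to 5.34 to 17.4 and 15.4 to 17.57 CPM, and endothelial markers to 0.732 to 4.90 and 2.72 to 6.27 CPM, each lowest in GFP replicate 1. Without GFP replicate 1 the member counts below became 15 higher and 37 lower, and without GFP replicate 2 they became 15 and 36.

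Ligase genes that changed fell more often than they rose, and most changes were small. Of the 199 members, 118 had enough reads to be tested, 46 had too few and 35 had 0 counts in every library. The largest summed count of an untested member was 35 over the 3 libraries of a group. With ChREBP-beta, 17 of those tested were higher (14.4%, against 29.5% of all 12166 genes tested) and 40 were lower (33.9%, against 29.3%), by edgeR's quasi-likelihood test at a Benjamini-Hochberg adjusted p under 0.05. In either direction 57 members were called, or 48.3%, against 58.7% of all genes. The share called lower was thus near that of all genes, and the share called higher was below it. The groups did not overlap at all for 64 members (54.2%), against 63.2% of all genes. The median log2 fold change of the tested members was -0.11, and that of all genes tested was -0.004. The median size of the change, without its sign, was 0.19 for members and 0.23 for all genes on the log2 scale.

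Of the 57 called members, 43 changed by under 1.5-fold and 8 by 1.5-fold to 2-fold. A change of at least 2-fold was called higher for 1 member (Trim17; 4.06% of all genes) and lower for 5 (Trim12c, Trim30a, Trim30d, Trim54 and Klhl41; 7.42% of all genes). Trim17 passed the filter on low counts only through its ChREBP-beta libraries, and Trim30a, Trim30d, Trim54 and Klhl41 only through their GFP libraries, so a difference in these 5 was a condition of their being tested. Trim66 (not called) also met the filter through its GFP libraries alone, with 1 ChREBP-beta library past the cutoff, while Fbxo24 and Trim43c were past it in 2 GFP libraries each and in 1 and 2 ChREBP-beta libraries. The other 110 members were past the cutoff in all 3 libraries of both groups. Of these 16 were higher (14.5%) and 36 lower (32.7%), where all 11287 genes past it in both groups had 30% and 28.8%. The plot of tested members by family shows the fold changes sorted within each family.

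**Figure D1:**
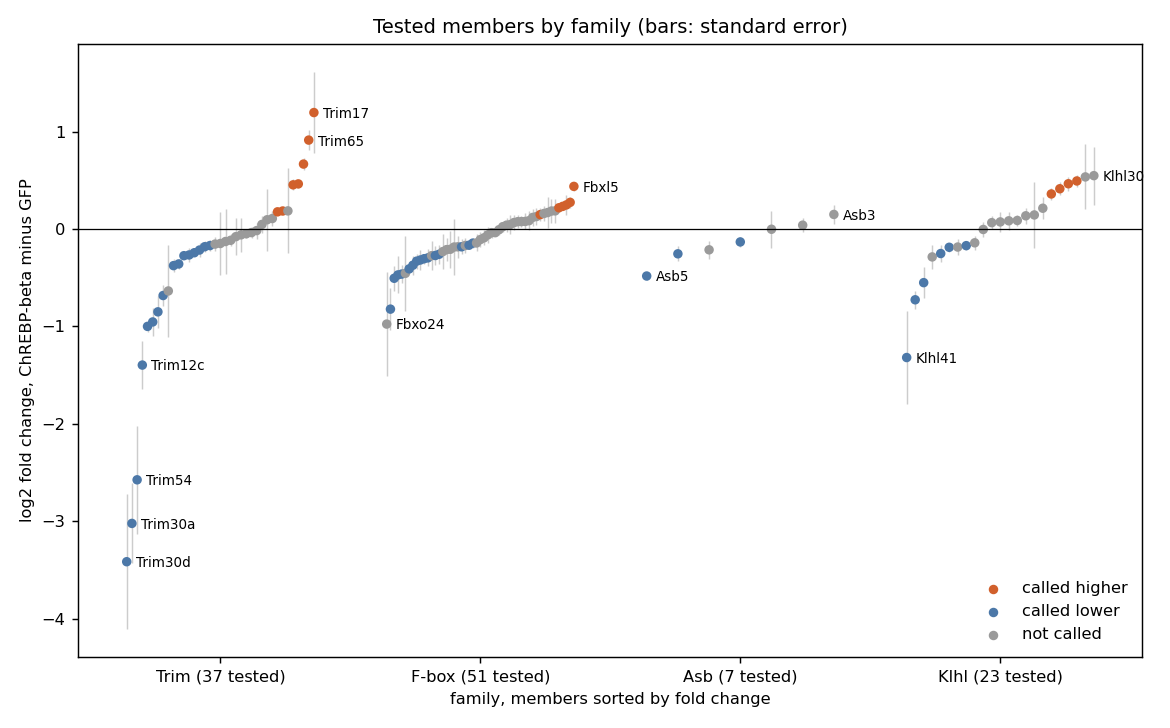
The log2 fold change (ChREBP-beta minus GFP) of the 118 tested members is plotted by family, sorted within each, with bars for the standard error and colour for the edgeR call. Trim genes spread from -3.42 to 1.20, while tested F-box genes lie between -0.98 and 0.44 and Asb genes between -0.48 and 0.15.

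The counts by family were as follows, and the differences between families were not tested. Over all genes tested 29.5% were higher and 29.3% lower. The shares were 18.9% and 43.2% for Trim genes and 11.8% and 29.4% for F-box genes. They were 0% and 42.9% for Asb genes and 17.4% and 26.1% for Klhl genes. The shares of F-box and Klhl genes called lower were thus near that of all genes. In the Trim family 37 were tested, and 7 rose, 16 fell and 14 were left without a call, with a median log2 fold change of -0.15. Among the F-box genes 6 of 51 rose, 15 fell and 30 were not called, with a median of -0.11. Of 7 tested Asb genes 3 fell, 4 were not called and 0 were higher, with a median of -0.13; 0 were higher also at an unadjusted p under 0.05 and with DESeq2. Of 23 tested Klhl genes 4 rose, 6 fell and 13 were not called, with a median of 0.07. Within the F-box genes, 2 of 28 Fbxo genes rose (7.14%) and 8 fell (28.6%). Of 15 Fbxl genes 3 rose and 3 fell (20% each), and of 8 Fbxw genes 1 rose (12.5%) and 4 fell (50%). Another 14 of the 23 Fbxw genes had 0 counts in all 6 libraries.

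The summed output of the families moved little. Trim transcripts took 1497 ± 23.2 CPM with GFP against 1454 ± 12.3 CPM with ChREBP-beta, and F-box transcripts took 1497 ± 8.0 CPM and 1458 ± 13.5 CPM (SD, n = 3). Klhl transcripts took 579 ± 4.22 CPM and 589 ± 14.7 CPM. Asb transcripts took 249 ± 4.92 CPM and 210 ± 2.66 CPM, a ratio of 0.843. Of that drop of 39.0 CPM, Asb5 made up 30.2 CPM. All members together took 3822 ± 14.9 CPM with GFP against 3711 ± 16.5 CPM with ChREBP-beta.

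The share of members called was higher at higher levels. At a mean level under 5 CPM 33.3% of members were called (44.6% of all genes at that level), at 5 to 20 CPM 43.8% (51.2%), at 20 to 50 CPM 47.5% (59.5%) and at 50 CPM or more 72.7% (69.8%). From the lowest to the highest level these classes held 24, 32, 40 and 22 members. Among the 22 members at 50 CPM or more 6 were called higher (27.3%) and 10 lower (45.5%). All 4397 genes at that level had 44.5% and 25.3%. Below 50 CPM the shares called lower were nearer those of all genes. They were 29.2% under 5 CPM (30.2% of all genes), 37.5% at 5 to 20 CPM (33.2%) and 27.5% at 20 to 50 CPM (31%). In the same classes 4.17%, 6.25% and 20% of members were called higher, against 14.4%, 18% and 28.5% of all genes. The plot of level against change sets the members among all genes tested.

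**Figure D2:**
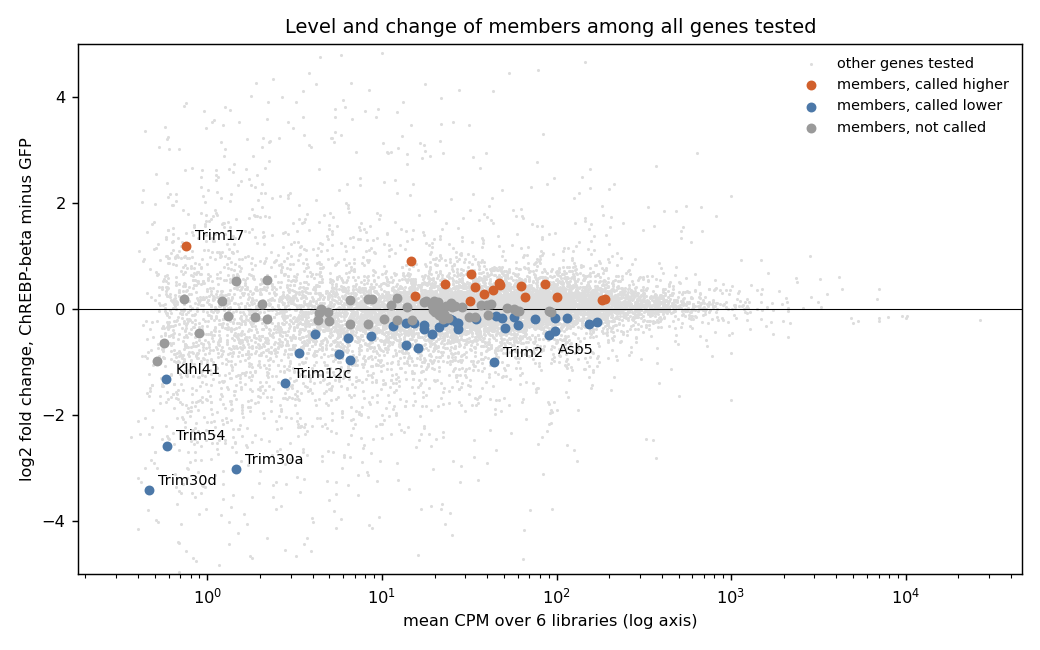
Each point is a tested gene, with its mean CPM over 6 libraries on a log axis and its log2 fold change (ChREBP-beta minus GFP) on the y axis, and members are coloured by call. The 4 lowest fold changes, Trim30d, Trim30a, Trim54 and Trim12c, belong to members at low levels, while 73 other genes lie beyond the axis limit of 5.

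Per kilobase of exon, the most abundant member with GFP was Asb5, at 57.5 CPM per kilobase. Trim59, which encodes a membrane-anchored Trim protein, stood at 49.9 CPM per kilobase, Trim28 at 40.9, Trim35 at 40.2 and Trim44 at 31.3. Fbxo11 led the F-box genes at 25.4 CPM per kilobase, followed by Fbxw8 at 22.1 and Fbxw11 at 21.3. Klhl9 led the Klhl genes at 24.7 CPM per kilobase.

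Members known from striated muscle were lower with ChREBP-beta where they could be tested and called. Of 28 such genes 10 were tested, 8 fell and 2 were not called. Trim54 and Klhl41, 2 of the 8, could be tested only through their GFP libraries. Among the 8 tested genes past the count cutoff in both groups, 6 were lower, where 28.8% of all genes past it in both groups were lower. Higher members numbered 0 by edgeR, 0 at an unadjusted p under 0.05 and 0 with DESeq2. Lower members numbered 7 without GFP replicate 1, and 5 without GFP replicate 2. The other 108 tested members gave 17 higher (15.7%) and 32 lower (29.6%), beside 29.5% and 29.3% of all genes tested. The 8 myoblast markers fell as well, to the summed levels given above, and their part in this result was not tested. In bulk RNA, fewer cells of a type and less RNA per cell cannot be told apart.

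Asb5, an ankyrin-repeat SOCS-box protein made in muscle and its precursors, carried most of the change in its family. The gene (ENSMUSG00000031519.3) lies on chromosome 8, 54529580 to 54587842, on the plus strand of GRCm38. Its level was 104, 108 and 106 CPM in the GFP libraries and 73.7, 79.5 and 74.5 CPM in the ChREBP-beta libraries. The groups lay far apart and each was tight, and Asb5 fell 1.40-fold (log2 fold change -0.48, SE 0.04, edgeR adjusted p = 2.62e-10). Asb8 had 47.2, 46.9 and 46.6 CPM with GFP and 43.2, 41.6 and 43.5 CPM with ChREBP-beta (adjusted p = 0.0368 by edgeR). Its groups did not overlap either, but the difference was only 1.10-fold and its call was lost without any 1 of the 6 libraries.

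Muscle ligases of atrophy were expressed at modest levels. Fbxo32 encodes atrogin-1, the F-box protein of muscle wasting, and lies on chromosome 15, 58175879 to 58214932, on the minus strand. It had 18.2, 22.3 and 18.7 CPM with GFP and 16.5, 15.4 and 13.8 CPM with ChREBP-beta. Every GFP library lay above every ChREBP-beta library, and Fbxo32 fell 1.29-fold (log2 fold change -0.37, SE 0.10, edgeR adjusted p = 0.00188). Fbxo30, also named MUSA1, a ligase of denervation atrophy, stood at 60.1 ± 2.17 CPM and 54.4 ± 0.340 CPM (SD, n = 3) and fell 1.11-fold (edgeR adjusted p = 0.0142; 0.0919 without GFP replicate 2). Trim63, which encodes MuRF1, the RING ligase usually paired with atrogin-1, was near silent, with 0 counts over the GFP libraries and 5 over the ChREBP-beta libraries, and was not tested.

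The relative of MuRF1 that could be tested was Trim54, or MuRF3, a microtubule-binding protein of the sarcomere on chromosome 5, 31116712 to 31137630, plus strand. It had 0.889, 1.38 and 0.780 CPM in the GFP libraries, and 0.218, 0.213 and 0.0578 CPM in the ChREBP-beta libraries. With 56 counts in all against 9, it fell 5.96-fold (log2 fold change -2.58, SE 0.55, edgeR adjusted p = 0.000308). Trim55, or MuRF2, had 6 counts with GFP and 0 with ChREBP-beta.

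Trim7 and Trim32 were the other Trim genes of this group. Trim7 encodes a protein that binds glycogenin, the primer of glycogen. It had 8.74, 8.63 and 8.69 CPM with GFP and 4.19, 4.47 and 4.80 CPM with ChREBP-beta. The groups were separate, and Trim7 fell 1.94-fold (edgeR adjusted p = 3.12e-06). Trim32, mutated in a limb-girdle muscular dystrophy, went from 29.8 ± 1.66 CPM to 24.7 ± 2.14 CPM (SD, n = 3), a fall of 1.20-fold (edgeR adjusted p = 0.00344).

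Among the Kelch proteins of muscle, Klhl41 stabilises proteins of the thin filament and is mutated in nemaline myopathy. Its level was 0.785, 1.05 and 0.669 CPM with GFP and 0.435, 0.266 and 0.289 CPM with ChREBP-beta. These are 46 counts against 18, and the fall of 2.50-fold (edgeR adjusted p = 0.0216) was lost without GFP replicate 2 (0.109), without ChREBP-beta replicate 2 (0.0821) or 3 (0.0739), with DESeq2 (0.0535) and with no filter (0.0779). Klhl30 moved the other way, from 1.78 ± 0.324 CPM to 2.60 ± 0.942 CPM (SD, n = 3), but was not called (log2 fold change 0.55, SE 0.30, edgeR adjusted p = 0.117). It was called without ChREBP-beta replicate 3, its lowest library of that group (log2 fold change 0.81, adjusted p = 0.0263 by edgeR). Klhl33 was not called either (log2 fold change 0.54, SE 0.33, edgeR adjusted p = 0.173).

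The other 18 genes of this group were not tested. Of these, 5 had 0 counts in all libraries (Asb10, Asb11, Asb12, Asb15 and Klhl34), and no count in 1 group exceeded 18. Fewer counts were found with ChREBP-beta for 9 genes, and more for 4 (Trim72, Trim63, Fbxl22 and Klhl38). Asb2, a ligase subunit of differentiating muscle, had 16 counts with GFP and 1 with ChREBP-beta, and Klhl40, a relative of Klhl41, had 12 and 1. Fbxo40, which targets the insulin receptor substrate in muscle, had 2 and 0. Over the 13 genes with any count, the sums were 80 and 42 counts.

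**Figure D3:**
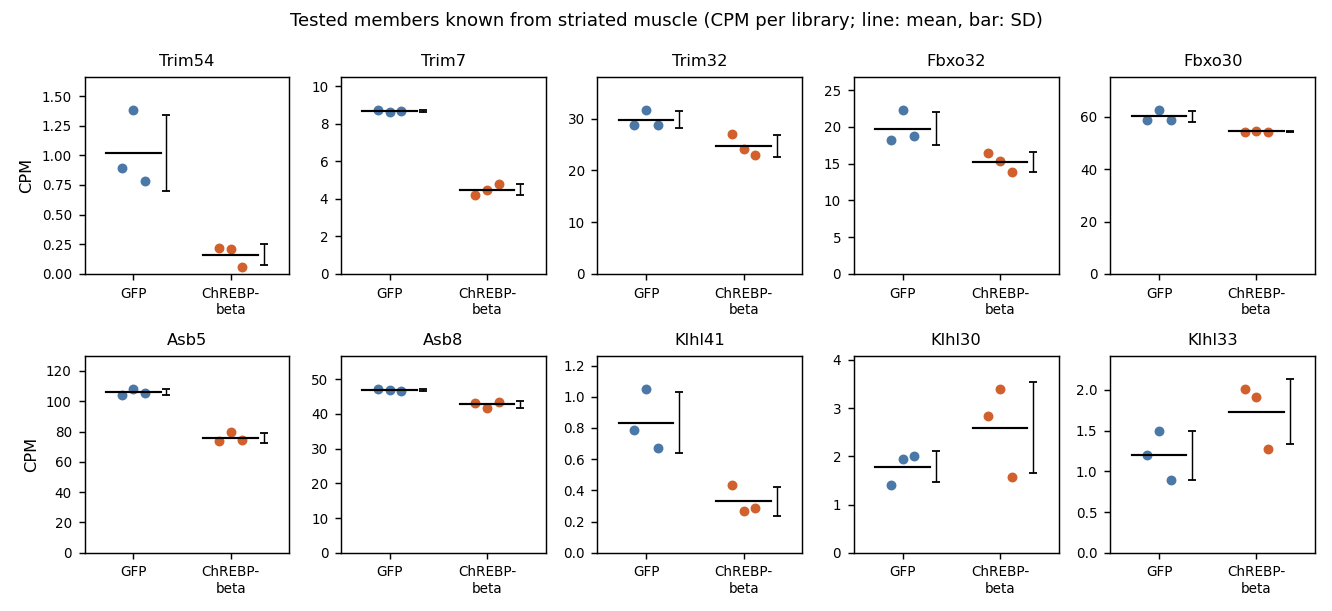
Level in CPM of the 10 tested members known from striated muscle, with a point per library, a line for the group mean and a bar for the SD (n = 3). The ChREBP-beta points lie below the GFP points in 8 panels, Trim54 at 0.0578 to 0.218 CPM among them, while Klhl30 and Klhl33 overlap between groups.

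The 2 largest falls among the tested members were those of Trim30d and Trim30a, which lie beside each other on chromosome 7. Both were tested only through their GFP libraries. They belong to a cluster of Trim genes known for restriction of viruses and control of innate immune signalling. Trim30a, which restrains NF-kB signalling in mouse cells, had 2.93, 2.38 and 2.45 CPM with GFP and 0.490, 0.106 and 0.347 CPM with ChREBP-beta. It fell 8.13-fold (log2 fold change -3.02, SE 0.41, edgeR adjusted p = 8.36e-07), on 143 against 17 counts. Its neighbour Trim30d had 0.889, 0.996 and 0.669 CPM, and 0.0544, 0 and 0.173 CPM, or 47 counts against 4 (log2 fold change -3.42, SE 0.69, edgeR adjusted p = 0.00016). The groups were separate for both genes, whose promoters are the near-copies printed above. Both held counts that were not whole in 2 libraries, which are called split reads here. How such counts arose is not given, so the separate values of these genes are less certain.

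Trim12c, a mouse relative of the retrovirus restriction factor Trim5, had 4.08, 3.76 and 4.23 CPM with GFP and 1.80, 1.22 and 1.56 CPM with ChREBP-beta. It fell 2.63-fold (log2 fold change -1.40, SE 0.25, edgeR adjusted p = 2.99e-05). The other 7 genes of the cluster were too low to be tested. Trim34a had 14 counts with GFP and 11 with ChREBP-beta, Trim34b 16 and 7, Trim12a 6 and 4, and Trim5 1 and 3. Trim6 and Trim30b had none, and Trim30c had 1 and 0.

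**Figure D4:**
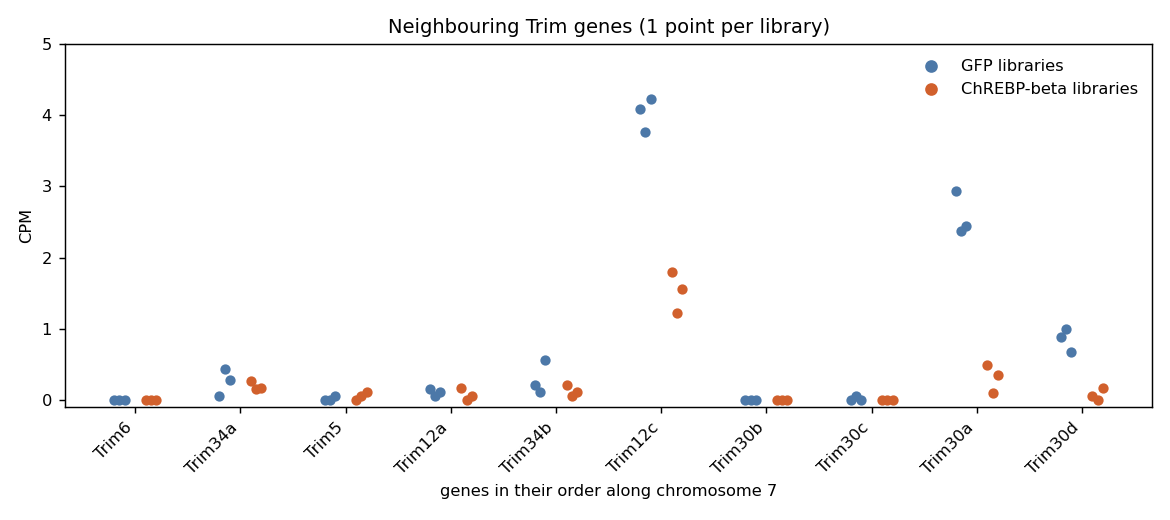
Level in CPM (y axis) of 10 Trim genes in their order along chromosome 7 (x axis), with a point per library coloured by group. Trim12c, Trim30a and Trim30d stand above the others with GFP, and for each of them the 3 ChREBP-beta points lie below the 3 GFP points.

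Trim genes of antiviral signalling outside the cluster went both ways. Of 16 such genes, cluster included, 8 were tested, 4 fell and 1 rose. Trim30a and Trim30d, 2 of the 4, were tested only through their GFP libraries, and of the 6 genes past the count cutoff in both groups 2 were lower and 1 higher (28.8% and 30% of all genes). Trim26 fell slightly, from 36.7 ± 0.207 CPM to 32.3 ± 0.832 CPM (SD, n = 3; edgeR adjusted p = 0.0111). Trim25, which ubiquitinates the RNA sensor RIG-I, stood at 19.8 and 19.6 CPM (log2 fold change -0.02, SE 0.08, edgeR adjusted p = 0.882). Trim21, the antibody receptor inside cells, stood at 1.96 and 1.77 CPM (log2 fold change -0.15, SE 0.32, edgeR adjusted p = 0.712).

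The gene that rose was Trim65, a ligase of the RNA sensor MDA5, on chromosome 11, 116121846 to 116131128, minus strand. Its level was 11.5, 8.69 and 10.5 CPM with GFP and 18, 19.8 and 20.1 CPM with ChREBP-beta. The groups did not overlap, and Trim65 rose 1.88-fold (log2 fold change 0.91, SE 0.10, edgeR adjusted p = 4.36e-08). Its neighbour Trim47 rose from 71.9 ± 2.51 CPM to 99.2 ± 3.40 CPM (SD, n = 3), or 1.38-fold (edgeR adjusted p = 1.01e-09). Trim47 lies on the same strand and shares 225 exon bases with Trim65 in GENCODE M21, 3.82% of the exon bases of Trim65 and 8.23% of those of Trim47, and how reads in that overlap were counted is not given. Trim16, which has no RING finger and is known from autophagy of damaged lysosomes, had 24.9, 25.4 and 24.3 CPM with GFP and 39.3, 37.6 and 41.7 CPM with ChREBP-beta. All 3 ChREBP-beta libraries were higher, and Trim16 rose 1.59-fold (edgeR adjusted p = 2.70e-09).

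Trim17 rose 2.29-fold at a very low level, from 0.452 ± 0.0671 CPM to 1.05 ± 0.0946 CPM (SD, n = 3; edgeR adjusted p = 0.0171). All 6 of its values held split reads, and its call was lost with no filter (0.0551) and without GFP replicate 2 (0.0527) or 3 (0.0576) or ChREBP-beta replicate 3 (0.0636). Trim27 rose from 39.8 ± 2.67 CPM to 54.6 ± 1.39 CPM (SD, n = 3; edgeR adjusted p = 2.49e-07), also with split reads in 3 libraries.

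The member with the smallest adjusted p was Trim2, a ligase with NHL repeats known from axon maintenance, on chromosome 3, 84160439 to 84306877, minus strand. Its level was 60.2, 57.0 and 58.2 CPM with GFP and 28.2, 31.2 and 28.3 CPM with ChREBP-beta. The groups were far apart and narrow. Trim2 fell 1.999-fold, just under the 2-fold threshold (log2 fold change -0.9996, SE 0.06, edgeR adjusted p = 2.11e-13). Trim3, its closest relative, also fell, from 51.6 ± 1.63 CPM to 45.9 ± 0.788 CPM (SD, n = 3; edgeR adjusted p = 0.00773). Trim68 fell from 7.28 ± 0.261 CPM to 4.04 ± 0.768 CPM (SD, n = 3), or 1.80-fold (edgeR adjusted p = 9.91e-05).

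Trim genes with a COS box, the motif that binds microtubules, were lower where they were called. Of 9 such genes 5 were tested, 4 fell and 0 rose by edgeR (also 0 at an unadjusted p under 0.05 and with DESeq2). Trim54 was tested only through its GFP libraries, and without it 3 of the 4 others were lower (28.8% of all genes past the count cutoff in both groups). Besides Trim54 the lower genes were Trim46, which bundles microtubules in axons, and Mid1 and Mid2, which carry other names and are not members. Trim46 had 15.5, 15.7 and 19.3 CPM with GFP and 10.6, 10.6 and 10.3 CPM with ChREBP-beta, a fall of 1.60-fold (edgeR adjusted p = 4.27e-06). Mid1 fell from 57.8 ± 1.24 CPM to 32.2 ± 1.20 CPM (SD, n = 3; edgeR adjusted p = 2.11e-12). Trim46 shares 239 exon bases with Krtcap2 on the opposite strand.

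Chromatin-bound Trim genes were split. Trim28, the corepressor of KRAB zinc finger proteins, rose from 170 ± 7.86 CPM to 192 ± 5.87 CPM (SD, n = 3; edgeR adjusted p = 0.000167). Trim24, its relative and a coregulator of nuclear receptors, fell from 31.0 ± 1.32 CPM to 23.9 ± 0.828 CPM (SD, n = 3; edgeR adjusted p = 4.09e-05). Trim33, which acts on Smad4, was not called (log2 fold change -0.05, SE 0.04, edgeR adjusted p = 0.303). Among the other abundant Trim genes, Trim44 rose from 177 to 201 CPM, while Trim59 fell from 167 to 138 CPM, Trim35 from 185 to 157 CPM and Trim8 from 57.0 to 44.5 CPM, with edgeR adjusted p-values of at most 1.63e-05.

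Among tested F-box genes, Fbxl5 showed the largest rise. Fbxl5 binds iron and directs the iron regulatory protein encoded by Ireb2 to degradation. It lies on chromosome 5, 43744615 to 43821638, minus strand. Its level was 54.1, 50.3 and 54.1 CPM with GFP and 71.3, 70.3 and 73.3 CPM with ChREBP-beta. The groups were well apart, and Fbxl5 rose 1.36-fold (log2 fold change 0.44, SE 0.05, edgeR adjusted p = 2.56e-08). Transcripts of its substrate Ireb2 were not called (135 and 130 CPM, edgeR adjusted p = 0.222).

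The paralogs of beta-TrCP, which mark substrates of Wnt and NF-kB signalling, went opposite ways. Fbxw11 had 91.2, 91.1 and 93.8 CPM with GFP and 108, 110 and 107 CPM with ChREBP-beta, and rose 1.18-fold (edgeR adjusted p = 7.67e-06). Btrc, which is named outside the pattern, fell from 22.8 ± 0.564 CPM to 14.8 ± 1.59 CPM (SD, n = 3), or 1.55-fold (edgeR adjusted p = 1.24e-06). Fbxo45, a partner of the ligase Mycbp2, rose 1.21-fold and Fbxo28 rose 1.16-fold, with edgeR adjusted p-values of 0.000256 and 0.000294. Fbxl20 was called higher (14.2 ± 0.945 CPM to 16.9 ± 2.35 CPM, SD, n = 3; edgeR adjusted p = 0.0404), but its groups overlapped, the only called member of which that was true. Its call was lost under upper-quartile scaling (0.0734), library-size scaling (0.0985) and DESeq2 (0.0772), and without 4 of the 6 libraries taken singly (0.0760 to 0.238).

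Fbxo11, a ligase of the repressor BCL6 that lies on chromosome 17, 87990859 to 88065291, minus strand, was the most abundant F-box gene per length and fell. It had 108, 111 and 116 CPM with GFP and 86.7, 83.0 and 82.7 CPM with ChREBP-beta. No libraries of the groups overlapped, and the fall was 1.33-fold (log2 fold change -0.41, SE 0.04, edgeR adjusted p = 3.11e-09). Fbxo2, which recognises N-glycans of misfolded glycoproteins, fell 1.77-fold from 4.28 ± 0.596 CPM to 2.42 ± 0.221 CPM (SD, n = 3; edgeR adjusted p = 0.00243). Fbxw9 fell 1.38-fold (edgeR adjusted p = 8.33e-05). Fbxl8 fell 1.39-fold (edgeR adjusted p = 0.0374), a call lost with DESeq2 (0.0658) and without 4 of the 6 libraries taken singly (0.0759 to 0.131).

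F-box genes of the cell cycle were mixed, with 2 of 9 higher (22.2%) and 3 lower (33.3%), beside 29.5% and 29.3% of all genes tested. Fbxo31 and Fbxo4, both linked to cyclin D1 turnover, fell. Fbxo31 went from 10.2 ± 0.812 CPM to 7.18 ± 0.946 CPM and Fbxo4 from 19.3 ± 1.08 CPM to 15.7 ± 0.768 CPM (SD, n = 3; edgeR adjusted p = 0.00159 and 0.005). The transcript of cyclin D1, Ccnd1, rose from 292 ± 2.90 CPM to 741 ± 17.3 CPM (SD, n = 3; edgeR adjusted p = 1.91e-22). Cyclin D1 protein was not measured, and a link between these changes was not tested. Fbxw7, which targets cyclin E, Myc and Notch, was not called (18.7 and 20.9 CPM, edgeR adjusted p = 0.0975), and neither was Fbxo5, the inhibitor of the anaphase-promoting complex (edgeR adjusted p = 0.346).

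The remaining Asb genes moved little. Asb1 had 30.6, 28.3 and 29.0 CPM with GFP and 24.8, 21.6 and 27.5 CPM with ChREBP-beta, a fall of 1.19-fold (edgeR adjusted p = 0.00756). Its groups were just separate, and the call was lost without ChREBP-beta replicate 2 (0.0836). Asb7 was lower in the same way but just outside the call threshold of 0.05 (15.9 and 13.7 CPM, edgeR adjusted p = 0.0503). Asb6 stood at 28.4 and 29.2 CPM (edgeR adjusted p = 0.635), and Asb3 and Asb13 were not called. Without ChREBP-beta replicate 2 only 1 Asb gene was called.

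Klhl genes of cell division went both ways. Klhl21, Klhl9 and Klhl13 are adaptors of cullin 3 that act on Aurora B in mitosis. Klhl21, on chromosome 4, 152008803 to 152017680, plus strand, had 38.9, 39.9 and 38.7 CPM with GFP and 53.7, 59.3 and 52.4 CPM with ChREBP-beta. It rose 1.41-fold (log2 fold change 0.49, SE 0.06, edgeR adjusted p = 6.64e-08). Klhl13 fell from 80.2 ± 3.95 CPM to 70.5 ± 3.86 CPM, and Klhl9 from 103 ± 4.98 CPM to 91.7 ± 3.20 CPM (SD, n = 3; edgeR adjusted p = 0.00171 and 0.00124). Klhl9 held split reads in all 6 libraries, and 15.8% of its exon bases are shared with a gene on the opposite strand.

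Klhl22, an adaptor known from mitosis and from amino acid signalling, had the largest fall of the well-expressed Klhl genes. The gene lies on chromosome 16, 17759618 to 17793382, plus strand. Its level was 21.2, 18.5 and 20.2 CPM with GFP and 12.7, 11.9 and 11.7 CPM with ChREBP-beta. The groups were separate, and Klhl22 fell 1.65-fold (log2 fold change -0.73, SE 0.09, edgeR adjusted p = 2.31e-07). Klhl2, which binds actin and targets WNK kinases, had 19.1, 18.6 and 20.3 CPM with GFP and 26.7, 26.8 and 26.5 CPM with ChREBP-beta, a rise of 1.38-fold (edgeR adjusted p = 6.29e-06). Klhl5 rose 1.33-fold and Klhl42, which acts on the microtubule severing protein katanin, rose 1.28-fold, with edgeR adjusted p-values of 1.13e-05 and 1.49e-05. Klhl23 fell 1.46-fold (edgeR adjusted p = 0.0049). Klhl24 fell 1.19-fold (edgeR adjusted p = 0.0134), a call lost without GFP replicate 1 (0.102) or ChREBP-beta replicate 2 (0.0580) or 3 (0.0866).

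**Figure D5:**
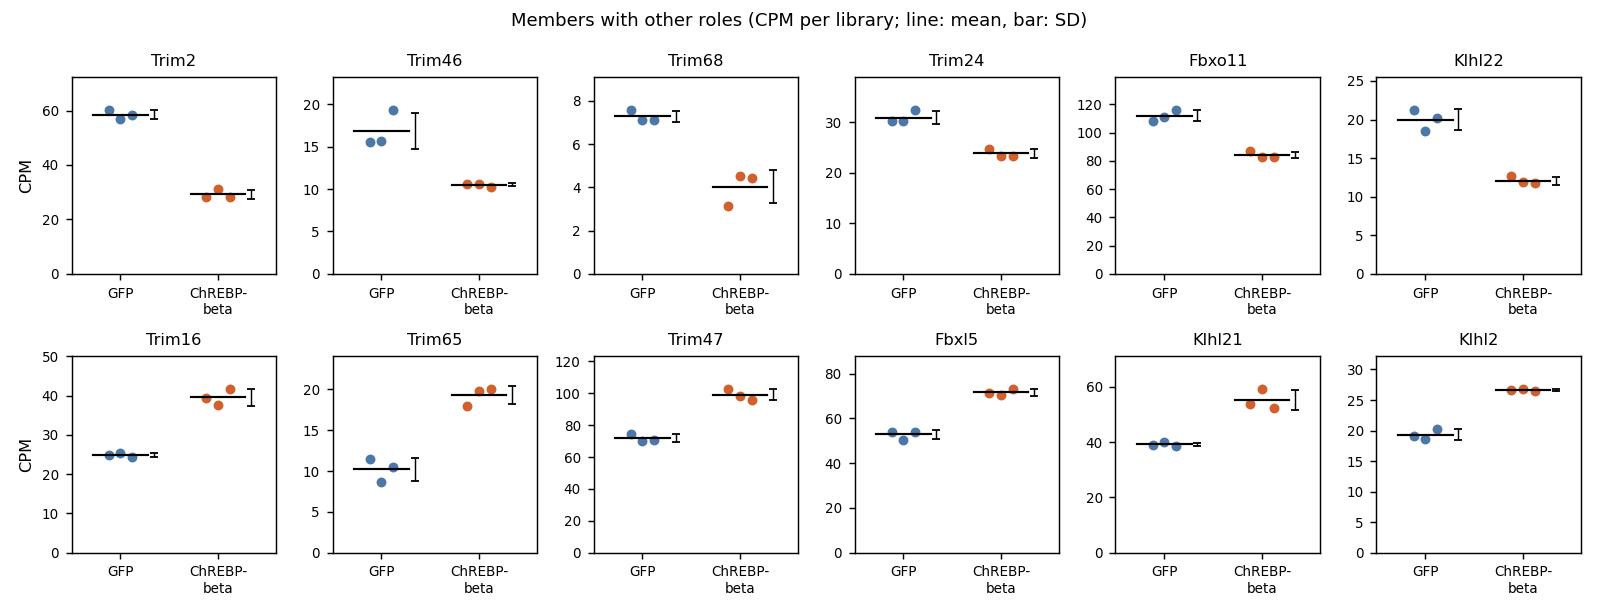
Level in CPM of 12 members with other roles, with a point per library, a line for the group mean and a bar for the SD (n = 3). The groups are separate in every panel, from Trim2 at 57.0 to 60.2 CPM with GFP against 28.2 to 31.2 CPM with ChREBP-beta to Klhl2 at 18.6 to 20.3 CPM against 26.5 to 26.8 CPM.

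The shared parts of cullin ligases had small changes. Their median size was 0.09 on the log2 scale, beside 0.19 for the members and 0.23 for all genes tested. These sets were not matched for level. Of 13 tested cullins and core subunits 3 rose and 4 fell, none by 1.5-fold or more. The share called was 53.8%, near the 58.7% of all genes tested. Cul1, the scaffold of the F-box ligases, rose from 179 ± 3.65 CPM to 208 ± 6.70 CPM (SD, n = 3; edgeR adjusted p = 3.39e-06), while its linker Skp1a went from 151 to 142 CPM (edgeR adjusted p = 0.046). Cul7, which pairs with Fbxw8, fell from 130 ± 5.37 CPM to 101 ± 0.657 CPM (SD, n = 3; edgeR adjusted p = 9.32e-09), and Fbxw8 itself fell from 122 ± 2.12 CPM to 109 ± 6.35 CPM (SD, n = 3; edgeR adjusted p = 0.00107). Cul3, the scaffold of the Klhl ligases, was not called (230 and 227 CPM, edgeR adjusted p = 0.694), nor was Cul5, that of the Asb ligases (104 and 107 CPM, edgeR adjusted p = 0.429). Cul4a rose from 140 to 170 CPM (edgeR adjusted p = 2.08e-07).

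Of 23 genes of the NEDD8 cycle, which switches cullins on and off, 7 rose (30.4%) and 3 fell (13%). Over all genes tested 29.5% were higher and 29.3% lower. Cand2, the muscle form of the factor that exchanges F-box subunits, fell most, from 17.2 ± 1.20 CPM to 8.0 ± 0.722 CPM (SD, n = 3; edgeR adjusted p = 2.33e-09). Of 24 ubiquitin, E1 and E2 genes 10 rose (41.7%) and 5 fell (20.8%), all by under 1.5-fold. In either direction 62.5% were called, near the 58.7% of all genes tested. Of the 24, 9 held split reads. Ubb, which encodes polyubiquitin, fell from 643 ± 3.50 CPM to 514 ± 13.4 CPM (SD, n = 3; edgeR adjusted p = 2.60e-10).

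Related genes with other names were called for 12 of 25 tested (48%, beside 48.3% of members and 58.7% of all genes). This list mixes genes of the 4 families with others, among them SOCS-box genes such as Socs2 that are not Asb genes. Of the 12 called, 5 were higher and 7 lower. Ivns1abp, a Kelch protein that binds actin, rose 1.67-fold and Socs2, a SOCS-box protein that limits growth hormone signalling, fell from 15.9 ± 0.179 CPM to 3.98 ± 0.297 CPM (SD, n = 3; edgeR adjusted p = 3.53e-13). Regulators of muscle atrophy were mixed, with 3 of 9 tested higher (33.3%) and 4 lower (44.4%), beside 29.5% and 29.3% of all genes tested. Foxo3, which drives Fbxo32 and Trim63 in wasting muscle, fell 1.18-fold (edgeR adjusted p = 0.00121), Foxo1 was not called (39.4 and 41.7 CPM, edgeR adjusted p = 0.237) and Stat3 rose 1.41-fold (edgeR adjusted p = 8.02e-11). Of 16 tested transcripts of known ligase substrates 6 rose (37.5%) and 7 fell (43.8%), beside 29.5% and 29.3% of all genes tested. Myod1, a substrate of atrogin-1, was among those that fell, at the values given above.

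The promoter table held 158 of the 199 members. CACGTG, the E-box that ChREBP and Mlx bind, is its own reverse complement. It was found in the 250 bases before the start in 0 of 11 members that rose, in 2 of 31 that fell (6.45%, Fbxl2 and Klhl22) and in 5 of 49 not called (10.2%), against 6.05% of all 27025 promoters. A pair of exact CACGTG copies with 5 bases between was found in none of the 27025 promoters, so this search tells nothing about the members. CAGCTG was found in 3 of 11 members that rose (27.3%), 9 of 31 that fell (29.0%) and 5 of 49 not called (10.2%), against 12.8% of all promoters. The GAAA pair with 2 bases between, searched on both strands and added after the data were seen, was found in none of the 11 that rose, in 5 of the 31 that fell (16.1%: Trim26, Trim12c, Trim30a, Trim30d and Klhl22) and in 2 of the 49 not called (4.08%), against 3.04% of all promoters. These shares rest on few genes, near-copies among them, and were not tested.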

How the data were processed

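RNA of 6 C2C12 samples, 3 with GFP and 3 with ChREBP-beta overexpression, was extracted with Trizol and sequenced, per the labels. The authors deposited estimated counts per gene symbol, not normalized, of which 7.74% were not whole (5.19% of member values). The submitters' processing notes name fastp, Bowtie2 2.0.0.5, TopHat2 2.0.0 and the chicken build GRCg6a. The symbols are those of mouse genes, but no source used here states the mouse build, the annotation, the counter or its strand setting. Reads of overlapping genes thus cannot be told apart, and 19 of the 118 tested members share exon bases with another listed gene.

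The 24 symbols in more than 1 row were summed and counts were rounded. The groups were compared in R 4.3.3 by edgeR 4.0.16 (filterByExpr at a minimum count of 10 and total of 15, TMM, glmQLFit, glmQLFTest, two-sided, no covariate), with Benjamini-Hochberg adjustment over 12166 genes. Standard errors are the log2 fold change over the square root of F. CPM values use TMM-scaled libraries. The common biological coefficient of variation was 3.44%. Replicates of a group differed by a chi-square of 2.17 to 3.98 per degree of freedom, more than sampling noise, so all were kept. A gene listed at 0 over a group may reach 3 counts, or about 0.0544 CPM with GFP, counting error only. The procedure was tested on simulated counts with far fewer changed genes than the 7145 called here. That test does not give the error rates of these data. For all 199 members, location and exon length came from GENCODE M21 (GRCm38) by symbol, and promoters from RefSeq (GRCm38.p6), which may not be the annotation used for counting. Promoters are those of the first start site listed per gene.

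Members, gene lists and tests were chosen with earlier results of these data known. Named were, per family, up to 4 called members with the largest rise and up to 4 with the largest fall at a mean of at least 1 CPM, the 3 most abundant per kilobase, the muscle members, and up to 3 genes of each other list by adjusted p. Other genes were named as examples after their values were seen, and some genes that the rule picks are not reported here. Alternatives were scaling by RLE, by the upper quartile and by library size, TMM without Mlxipl and the 10 most abundant genes, no filter, a minimum mean of 5 CPM, limma-voom (limma 3.58.1), DESeq2 1.42.0, the replicate number as a block, and each library left out. Counts of the muscle, antiviral and COS-box groups under these settings, and counts over genes past the cutoff of filterByExpr in all libraries, were added after seeing the data.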

Additional observations from a re-analysis of the deposited data

How the results depend on the processing

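Among the members named by the rule above, no called direction reversed under any setting in which the gene was tested. The other called members were checked only for a kept call in the same direction. Over the alternatives the count of higher members ran from 15 to 17 and that of lower members from 34 (DESeq2) to 48 (library-size scaling), against 17 and 40. With each library left out, higher members ranged from 15 to 16, lower members from 34 to 37, and called Asb genes from 1 (without ChREBP-beta replicate 2) to 3. The muscle members that fell numbered 5 to 8 over all settings, with 6 under DESeq2. Scaling moved the median log2 fold change of all genes by at most 0.05 (library size). Same-numbered libraries did not deviate together (correlations of -0.02, 0.00 and -0.04). Such a check of 3 libraries per group cannot settle whether the numbers pair them. With a replicate block 6902 genes, 16 higher members and 37 lower members were called, and 23 Trim, 18 F-box, 2 Asb and 10 Klhl genes. Of the named calls it ended those of Fbxl8 (adjusted p = 0.0572) and Asb8 (0.0506). Depth limits the low members: at 1 CPM a library holds about 18.3 counts, and 81 members could not be tested.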
